A study of Saccharomyces cerevisiae with 10 samples.

Results

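The comparison set budding yeast (Saccharomyces cerevisiae) depleted of nuclear Nab3 against a control strain, with 2 libraries in each group, 4 of the 10 samples of the series. The control libraries came from the strain labelled NabCassette, whose titles call it wild type, grown without rapamycin. The depleted libraries came from the strain labelled NabFRB, grown with rapamycin for a time not given in the sources used here. An FRB tag binds a rapamycin-bound anchor outside the nucleus, so rapamycin carries the tagged protein out of the nucleus and leaves its gene intact. All cultures were grown in medium with limiting uracil, and RNA crosslinked to a tagged protein was recovered from nuclear RNA by PAR-CLIP, crosslinking and immunoprecipitation with a photoactivatable nucleoside. Per the series' design text, the protein mapped was RNA polymerase II (Pol II), but neither the tagged subunit nor the cassette is described for these 4 samples. Strain, depletion and rapamycin changed together, so their effects cannot be told apart. Libraries of the NabFRB strain without rapamycin were not analysed here.

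Nab3 and Nrd1 are RNA-binding proteins that work with the helicase Sen1. Together they end Pol II transcription behind snoRNA genes and of many short noncoding RNAs, and they also stop transcription early on some mRNA genes, NRD1 itself among them. Nab3 is known to bind UCUUG in RNA and Nrd1 to bind GUAG or GUAA, and ended transcripts are trimmed or degraded by the nuclear exosome.

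Values are reads per feature divided by 1 size factor per library, called normalised reads here, and a feature is an annotated or putative open reading frame. Of 6677 features, 6360 had a mean of at least 10 normalised reads over the 4 libraries and were taken. The nearest features inside that limit were YGR290W at a mean of 10.03, YDL026W at 10.06 and YFL064C at 10.08, and the nearest outside it were YOR161W-B at 9.96, YAR053W at 9.96 and YGL239C at 9.84. Depth was 12084304 and 9584474 reads in cassette libraries 1 and 2, and 13428820 and 9046857 in Nab3 libraries 2 and 3, as their columns number them. Between the repeats the median absolute log2 difference of a feature was 0.064 in the cassette and 0.085 in the Nab3 libraries, against 0.156 between the group means. All 4 libraries carried the signal of alpha cells, with the alpha-factor gene MF(ALPHA)1 between 4332 and 5426 and the a-factor genes MFA1 and MFA2 at 13.4 or below. The 18 mitochondrially encoded genes were listed at 0 in every library.

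The comparison asks where reads, held to be those of Pol II, lie when Nab3 has left the nucleus. After depletion 2528 features changed, which is 39.7% of those tested (limma on log2(value + 1), Benjamini-Hochberg adjusted p under 0.05). Of these 1341 rose (21.1%) and 1187 fell (18.7%). Signed values after a gene, and values with an SE, are log2 fold changes, Nab3 over cassette. A change of at least 2-fold was seen for 215 risen features (3.38%) and 54 fallen ones (0.849%). Of the 215, 113 had a mean between 10 and 100 normalised reads. The median log2 fold change over all features was -0.01. Scaling each library by 1 factor brings this median near 0, so it cannot show a shift shared by most features. The balance of rises and falls depends on the scaling too. With upper-quartile scaling the order turned to 1172 rises and 1511 falls. Risen features held 18.9% of the normalised reads of the cassette group and 24.96% of those of the Nab3 group, while fallen ones held 20.4% and 16.1%. The libraries are not said to come from separate cultures, so p-values measure the spread between libraries only, and in bulk samples fewer cells with a transcript and less of it per cell cannot be told apart.

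**Figure D1:**
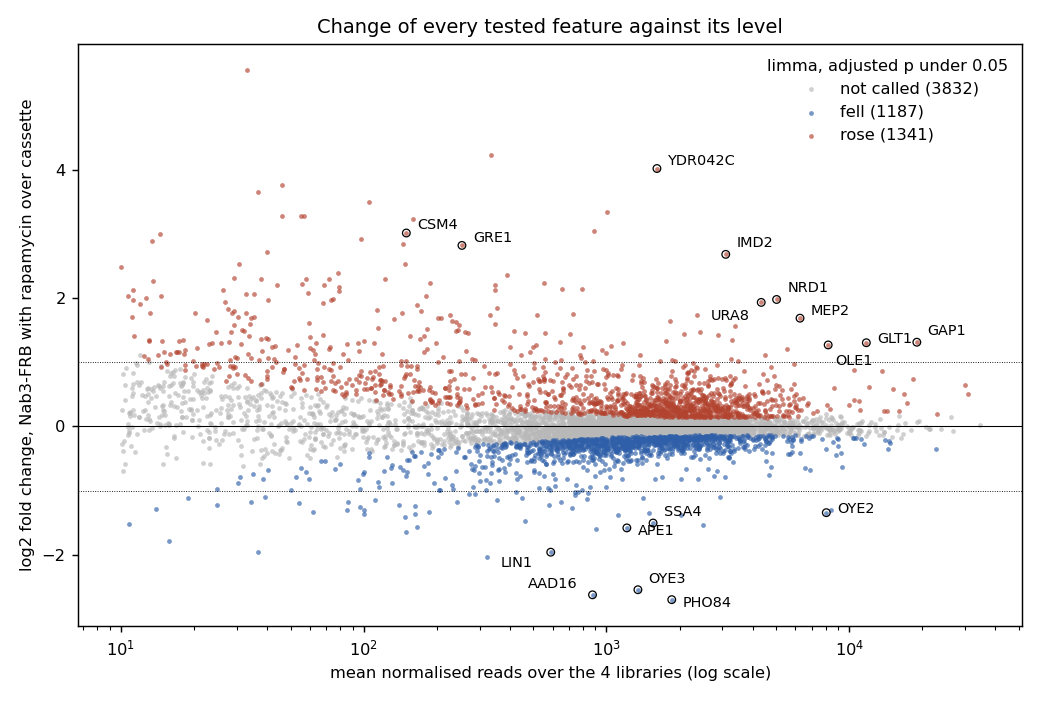
Log2 fold change (y axis) of each of the 6360 tested features against its mean over the 4 libraries (x axis, normalised reads, log scale), coloured by call; dotted lines mark a 2-fold change and circles mark named genes. Rises beyond 2-fold (215 features) outnumber falls beyond 2-fold (54 features), most of all at the left, where features are weakly read. Part of this excess follows from the filter, since 35 of the 215 had a cassette mean under 10 and passed through the Nab3 libraries.

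The complex's own genes and its partners in ending transcription did not move together. NRD1 rose, from 1959 and 2103 normalised reads in the cassette libraries to 7487 and 8536 in the Nab3 libraries. SEN1, the helicase gene, rose from 1490.0 and 1542 to 3081 and 2956. NAB3 moved little, at 2542 and 2573 against 2277 and 2312, and its log2 fold change of -0.16 ± 0.05 SE (adjusted p = 0.027) lost its call without cassette library 1 (adjusted p = 0.153) or 2 (0.192), with DESeq2 (0.101) and without the trend in limma (0.0856). The groups did not overlap for any of the 3 genes, as was the case for 70.9% of all features. Among 22 genes for cleavage and polyadenylation, the other route to an mRNA 3′ end, 3 rose and 5 fell. In this list 36.4% were called, against 39.7% of all features, and the median was -0.06, against -0.01 for all features. The rises were led by 2 RNA-binding members. REF2, a subunit of the cleavage factor that also helps end snoRNA transcription, rose from 990.4 and 1003 to 2571 and 2471 (log2 fold change 1.34 ± 0.06 SE, adjusted p = 2.57e-10). HRP1, the cleavage factor that marks the site, rose from 1584 and 1626 to 2949.9 and 3151 (0.93 ± 0.06 SE, adjusted p = 1.16e-08). FIP1, which tethers poly(A) polymerase, fell from 1078 and 1066 to 765 and 811 (-0.44 ± 0.07 SE, adjusted p = 0.000127). The falls in this list numbered 3 without the filter on low values, without the trend, and without cassette library 1.

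The exosome and its helpers, which degrade what the complex ends, were listed together with other exonucleases, and this list changed little. Of 21 genes 2 rose and 5 fell (33.3% called, against 39.7% of all features), with a median of -0.04. The rises were RAT1, the nuclear exonuclease that drives termination at mRNA ends, from 3107 and 3152 to 4213 and 4181 (0.42 ± 0.05 SE, adjusted p = 1.19e-05), and TRF5, a poly(A) polymerase of the TRAMP complex, from 1981 and 1978 to 2525 and 2431 (0.32 ± 0.05 SE, adjusted p = 0.000227). CSL4, an exosome subunit, showed the largest fall, from 2579 and 2360.5 to 2009.6 and 1896 (-0.34 ± 0.06 SE, adjusted p = 0.000427). These 3 genes changed with no overlap between groups, like 70.9% of all features, and each by less than 1.5-fold. The 5 falls dropped to 2 without cassette library 1, without Nab3 library 3, or without the trend. Among the 12 genes for Pol II subunits 4 fell and 0 rose (33.3% called, against 39.7% of all features), with a median of -0.09. RPB11 was the clearest at 1030.2 and 1036 against 675 and 759 (-0.53 ± 0.07 SE, adjusted p = 6.05e-05), and it was the sole call in that list without the trend or without cassette library 1, and 2 were called without cassette library 2. RPB2, the second-largest subunit, was level at 5762 and 5749 against 5792 and 5456 (log2 fold change -0.03, adjusted p = 0.646).

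Most genes that the complex is known to stop early rose, counted over the whole feature. In the list of 10 such genes 7 rose and 2 fell (90% called, against 39.7% of all features), with a median of 0.62. URA8, a CTP synthase, had 1766 and 1835 normalised reads in the cassette and 6594 and 7162 in the Nab3 libraries, and IMD2, which encodes IMP dehydrogenase on the way to GTP, had 819.7 and 852 against 5182 and 5544. By group means URA8 was 3.82-fold and IMD2 6.42-fold higher. Reads of IMD2 can be shared with the near-identical IMD1, IMD3 and IMD4. IMD1 went from 190.1 and 193 to 1555 and 1625 and IMD3 from 1918 and 1807 to 4516 and 4931, whereas IMD4 was not called, at 14511 and 14881 against 14802 and 14402, so how the gain divides among the copies is uncertain. The 2 falls, RPB10 and TIS11, were both lost without the trend, and 1 was left without cassette library 1 or 2. The first bases of NRD1 and URA8, and the stretch before IMD2, are shown because early termination is known near the 5′ ends of these genes. Capitals mark TCTTG, GTAG and GTAA, the DNA forms of the motifs, searched on the coding strand.
NRD1, coding bases 1 to 150, R64 chrXIV:174166-174315, minus strand: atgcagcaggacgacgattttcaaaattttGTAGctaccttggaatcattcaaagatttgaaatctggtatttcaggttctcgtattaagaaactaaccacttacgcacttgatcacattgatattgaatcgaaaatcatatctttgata
URA8, coding bases 1 to 150, R64 chrX:620754-620903, plus strand: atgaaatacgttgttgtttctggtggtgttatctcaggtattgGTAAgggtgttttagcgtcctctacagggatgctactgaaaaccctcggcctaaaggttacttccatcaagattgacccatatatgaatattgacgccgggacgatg
IMD2, from 250 to 101 bases before the start codon, R64 chrVIII:554146-554295, plus strand: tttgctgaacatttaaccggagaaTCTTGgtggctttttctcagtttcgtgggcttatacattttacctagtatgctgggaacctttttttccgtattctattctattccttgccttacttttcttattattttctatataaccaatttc
These sequences were read from the R64 genome of RefSeq. In the 300-base windows from 250 bases before to 50 bases after the start of 5778 tested genes, TCTTG occurred in 31.8%. It occurred in 49.5% of the 109 windows of genes that rose at least 2-fold. In the 49 windows of genes that fell at least 2-fold it occurred in 28.6%. Sets of either direction lay above all windows, however. TCTTG occurred in 43.8% of the 48 windows of the chaperone lists below, of which 31 fell and 0 rose. It occurred in 43.8% of the 16 windows of the phosphate uptake list and 45.2% of the 31 of the nitrogen lists. GTAG occurred in 54.0% of all windows, 57.8% of the risen and 53.1% of the fallen set, and GTAA in 76.4%, 80.7% and 85.7%.

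The lists of purine and of pyrimidine synthesis share IMD2, ADE12, URA8 and URA2 with the list above, so their counts are not separate from it. In purine and guanine nucleotide synthesis 12 of 25 members rose and 0 fell (48% called, against 39.7% of all features). The median was 0.11. Besides the IMD genes, MTD1, which makes one-carbon folate units, rose from 2008 and 1955 to 3343 and 3144 (0.71 ± 0.05 SE), and ADE17, which closes the purine ring, rose from 1529 and 1538 to 2118 and 2149.8 (0.48 ± 0.05 SE). In pyrimidine and CTP synthesis 7 of 15 rose and 4 fell, and 4 and 2 without cassette library 1. URA2, which carries out the first steps of the pathway, is among the most strongly read genes of the table and rose from 22635 and 24041 to 35949.9 and 37129 (0.65 ± 0.07 SE, adjusted p = 6.74e-06). URA10, an orotate phosphoribosyltransferase, rose from 411 and 402 to 811 and 827 (1.01 ± 0.08 SE). Its isozyme URA5 moved the other way, from 2912 and 2947 to 2262 and 2059.7 (-0.44 ± 0.06 SE, adjusted p = 2.76e-05). Of the pyrimidine list 73.3% were called, against 39.7% of all features. The medium limits uracil in both groups alike.

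Open reading frames that lie behind a snoRNA gene rose far more often than they fell. Of 30 tested features whose start lies within 1000 bases behind a snoRNA gene on the same strand, 15 rose and 2 fell. These shares were 50% and 6.67%, against 21.1% and 18.7% of all features, and the median was 0.14. Behind tRNA genes the shares were near those of all features, 31 risen and 25 fallen of 139, and behind protein-coding genes 463 rose and 494 fell of 2572. YDR042C, 399 bases behind SNR47, had 199 and 175 normalised reads in the cassette and 2914 and 3167 in the Nab3 libraries. RGT1, the repressor of hexose transporter genes, starts 729 bases behind SNR69 and went from 1484 and 1639.9 to 4223 and 4152. SFT1, a Golgi SNARE, starts 398 bases behind SNR87 and went from 1567 and 1516 to 2889 and 2676. The 3 features differed in size of change, at log2 fold changes of 4.02 ± 0.08 SE, 1.42 ± 0.06 SE and 0.85 ± 0.06 SE. None overlapped between groups, like 70.9% of all features. SEN2, a tRNA splicing endonuclease subunit 247 bases behind SNR79, rose by 0.79, HEM4, of haem synthesis, 211 bases behind SNR5, by 0.68, and PMD1, 680 bases behind SNR52, by 0.59. The 13 features that did not pass included ASN1, asparagine synthetase, at -0.13 behind SNR45 and NUP188, a nuclear pore gene, at 0.11 behind SNR85. RPL7A and RPS14A, genes of ribosomal proteins, made up the 2 falls, at -0.19 and -0.20, and both calls were lost without cassette library 2 (adjusted p = 0.101 and 0.0813) and without the trend (0.0923 and 0.0516).

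The 150 bases just past the 3′ end of the snoRNA genes in front of the 3 largest rises are shown, because termination behind snoRNA genes is the best known role of the complex. Capitals again mark TCTTG, GTAG and GTAA on the strand of the snoRNA.
behind SNR47, towards YDR042C, R64 chrIV:541452-541601, minus strand: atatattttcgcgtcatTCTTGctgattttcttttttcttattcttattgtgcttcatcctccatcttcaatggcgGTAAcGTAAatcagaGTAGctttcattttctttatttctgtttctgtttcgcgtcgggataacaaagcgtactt
behind SNR69, towards RGT1, R64 chrXI:364877-365026, plus strand: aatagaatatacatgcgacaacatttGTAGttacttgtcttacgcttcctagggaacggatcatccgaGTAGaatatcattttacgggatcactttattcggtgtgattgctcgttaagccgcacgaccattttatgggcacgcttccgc
behind SNR87, towards SFT1, R64 chrXI:430880-431029, minus strand: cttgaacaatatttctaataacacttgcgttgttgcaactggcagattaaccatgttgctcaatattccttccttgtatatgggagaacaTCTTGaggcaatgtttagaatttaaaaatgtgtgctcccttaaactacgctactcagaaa
TCTTG was found in 56.7% of the 30 such windows behind snoRNA genes and in 14.9% of 6002 windows of the same length behind protein-coding genes, and GTAG in 70.0% and 29.0%. GTAA was found in 60.0% and 54.7%. The 15 windows in front of a feature that rose and the 15 in front of one that did not were alike in these counts, with TCTTG in 9 and 8, GTAG in 10 and 11, and GTAA in 8 and 10.

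Features without an entry in the RefSeq annotation, most of them systematic names of putative reading frames, held about as many of the strong rises as all annotated genes. Of 577 such features 204 rose (35.4%) and 55 fell (9.53%), and 106 of them rose at least 2-fold (18.4%), against 109 of 5783 features with an entry (1.88%). No position is given for them. YOR041C had 38.0 and 28.2 normalised reads in the cassette and 687 and 583 in the Nab3 libraries, and YNL174W had 174 and 183 against 1798 and 1855. Their log2 fold changes were 4.23 ± 0.16 SE and 3.35 ± 0.08 SE. YLR232W, at 10.6 and 9.04 against 103 and 104, and YBR124W, at 17.7 and 14.7 against 195 and 191, were weakly read in the cassette and clear of it in both Nab3 libraries. Whether reads were counted by strand is not given in the sources used here, so reads of an overlapping gene on the other strand cannot be told apart from those of such a feature. In addition, 35 of the 215 features that rose at least 2-fold had a cassette mean under 10, YLR232W among them. These 35 entered through the group in which they were high. Features with a mean from 10 to 100 rose at least 2-fold in 17.5% of 647 cases, those from 100 to 1000 in 3.79% of 1977 and those above 1000 in 0.723% of 3736.

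The balance of rises and falls also differed between classes of feature length, without a steady climb from short to long. Of 849 features of 2.4 kb or longer 252 rose and 79 fell, with a median log2 fold change of 0.04. Of 2052 features from 1.2 to 2.4 kb 473 rose and 323 fell, with a median of 0.01. Of 1868 features from 0.6 to 1.2 kb 291 rose and 431 fell, with a median of -0.05. Of 1248 features from 0.3 to 0.6 kb 266 rose and 272 fell, with a median of -0.02. Among 343 features under 0.3 kb 59 rose and 82 fell, although 26 of them rose at least 2-fold. Values are not per length, so long features also hold more reads, and the part of read depth in these differences was not tested.

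**Figure D2:**
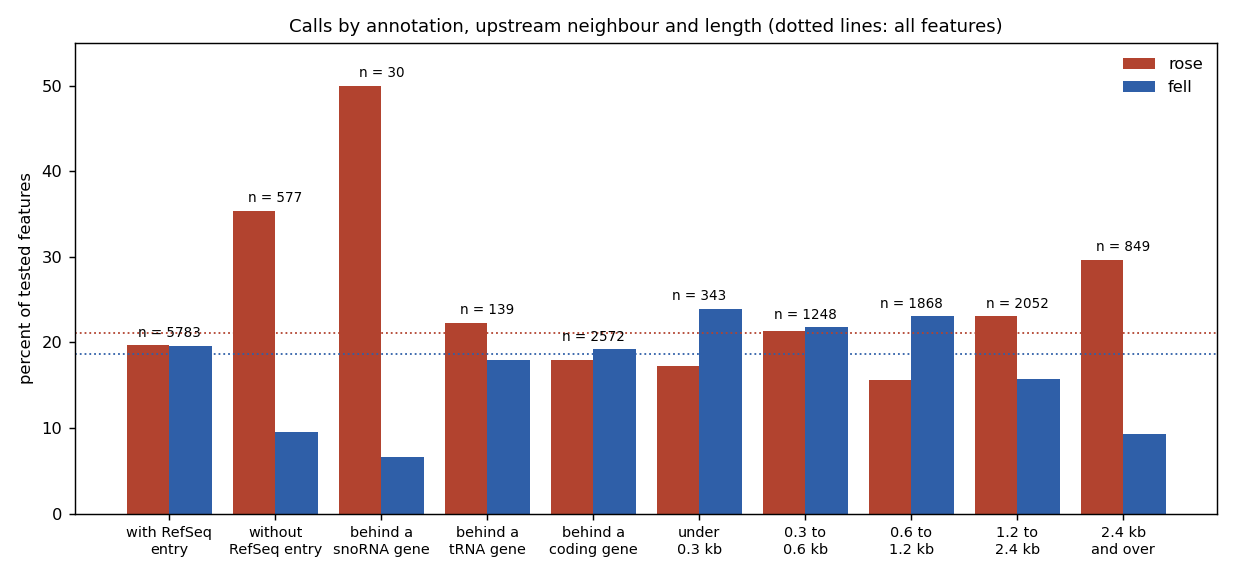
Percent of tested features that rose (red) or fell (blue) by RefSeq entry, by the gene lying upstream on the same strand within 1000 bases, and by length; n is the number tested and dotted lines give the shares over all features. Features without an entry (35.4% risen), those behind a snoRNA gene (15 of 30 risen) and those of 2.4 kb or longer (29.7%) lie farthest above the upper dotted line.

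Among genes with a standard name, the 15 largest rises had few functions in common. IMD1, IMD2, NRD1 and URA8 were among them, and the others included genes of meiosis, metal uptake, the cell wall and transport. CSM4, needed for chromosome segregation in meiosis, had 35.4 and 29.4 normalised reads in the cassette and 265 and 269 in the Nab3 libraries. MND1, a meiotic recombination factor, had 58.4 and 72.3 against 312 and 309. GRE1, a hydrophilin gene known to respond to osmotic stress, had 67.2 and 57.6 against 445 and 446. These 3 genes were weakly read in the control and rose 8.26-fold, 4.75-fold and 7.14-fold. TIR4, a cell wall mannoprotein of anaerobic cells, had 134 and 122 against 515 and 613. HES1, an oxysterol-binding protein, had 72.5 and 67.8 against 299 and 280.1, and GAT4, a GATA-family zinc finger protein, had 78.7 and 61.0 against 282 and 241. The log2 fold changes of these 6 genes lay between 1.90 and 3.01, with the highest adjusted p at 3.55e-07. Their groups did not overlap, as was the case for 70.9% of all features.

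The meiosis and sporulation list was called about as often as all features, 42.1% against 39.7%. Of its 38 genes 11 rose and 5 fell, with a median of 0.16, and without the filter on low values 7 rose and 3 fell. DIT2, of spore wall synthesis, rose from 54.8 and 73.4 to 160.0 and 155 (1.30 ± 0.17 SE), and SMK1, a sporulation kinase, from 35.4 and 42.9 to 96.3 and 76.7 (1.12 ± 0.21 SE). ZIP2, of the synaptonemal complex, fell from 271 and 278 to 135 and 141 (-0.99 ± 0.12 SE, adjusted p = 1.41e-05). IME1, the master regulator of meiosis, was not called, at 67.2 and 67.8 against 62.0 and 56.0 (adjusted p = 0.446).

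**Figure D3:**
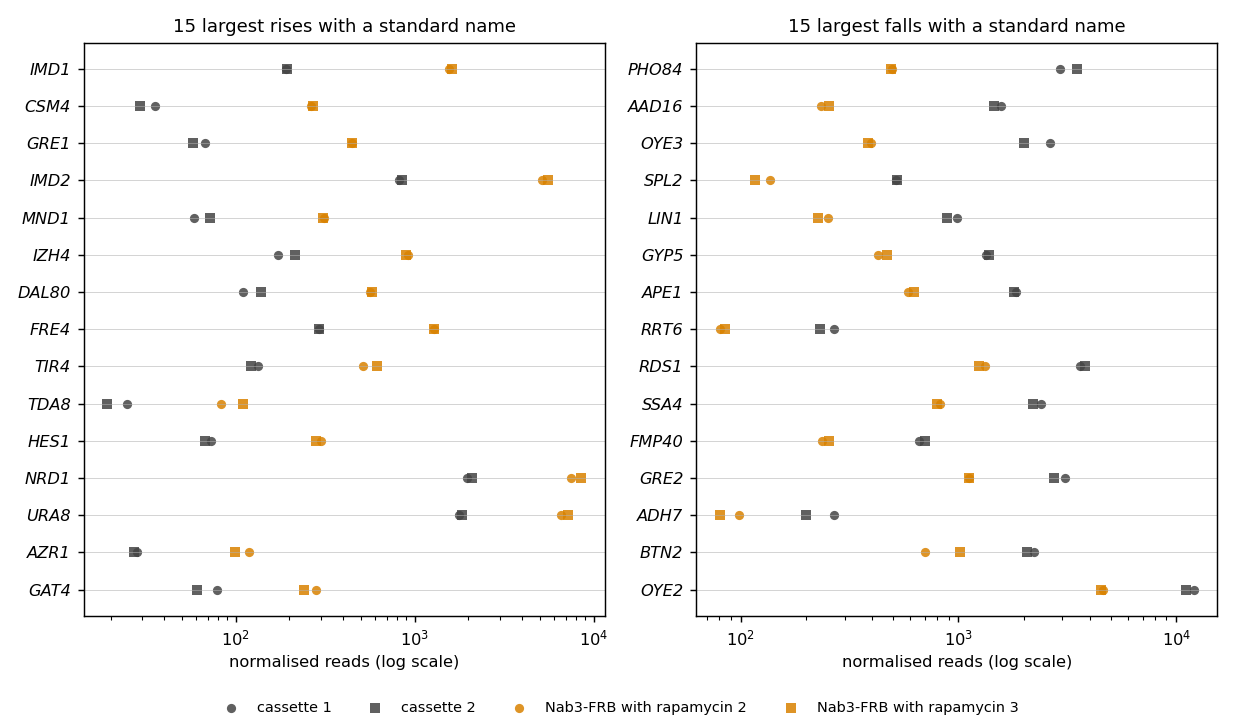
Normalised reads (x axis, log scale) of the 15 genes with the largest rises and the 15 with the largest falls among genes with a standard name and a mean of at least 50 in the higher group; grey marks are cassette and orange marks Nab3 libraries. In all 30 genes both orange marks lie on 1 side of both grey marks, which follows in part from how the genes were chosen.

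Nearly all genes of ammonium assimilation rose. In the list for ammonium uptake and glutamate synthesis 7 of 8 genes rose and 0 fell (87.5% called, against 39.7% of all features). The median was 0.62. MEP2, the high-affinity ammonium permease, had 2910.2 and 3031 normalised reads in the cassette and 10038 and 9099.9 in the Nab3 libraries. GLT1, glutamate synthase, had 6555 and 7013 against 17180.3 and 16295. MEP3, the low-affinity permease, had 2847 and 2843 against 6185 and 6093. None of the 3 overlapped between groups, like 70.9% of all features. Their log2 fold changes were 1.69 ± 0.06 SE, 1.30 ± 0.06 SE and 1.11 ± 0.05 SE (adjusted p = 3.42e-11, 6.42e-10 and 5.17e-10). The third permease gene, MEP1, rose from 4539 and 4618 to 7582 and 6909.9 (0.66 ± 0.06 SE), and GLN1, glutamine synthetase, from 11679.8 and 12510.5 to 17597 and 18553 (0.58 ± 0.06 SE). GDH3, a glutamate dehydrogenase isozyme, was the member that did not pass, at 0.19 (adjusted p = 0.147).

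Most genes for the use of allantoin and urea rose, while the other lists of poor nitrogen sources were mixed. The shares called were 80% for allantoin and urea, 40% for GATA control and 75% for GABA and proline, against 39.7% of all features. In allantoin and urea degradation 8 of 10 genes rose and 0 fell, with a median of 0.42, and 4 rose without the filter on low values and 5 with DESeq2 or without cassette library 2. DUR1,2, which splits urea, had 1079 and 1173 normalised reads in the cassette and 3111 and 3002 in the Nab3 libraries (1.44 ± 0.06 SE), and DUR3, which imports urea, had 945 and 919 against 1628 and 1627 (0.80 ± 0.06 SE). DAL1, allantoinase, was far weaker at 51.3 and 57.6 against 137 and 133 (1.30 ± 0.17 SE). DAL81 and DAL82, the activators of these genes, were not called (adjusted p = 0.706 and 0.993). The list for GATA control of the pathway holds 5 genes, the GATA factors and URE2, which is not a GATA factor itself. Of these the repressor DAL80 and the activator GAT1 rose, GAT1 from 1997 and 2072 to 2978 and 3391 (0.64 ± 0.06 SE). GLN3, GZF3 and URE2 were not called, with log2 fold changes between -0.07 and 0.11. In GABA and proline use 4 of 8 rose and 2 fell, with a median of 0.11, and 1 fell without the filter. PUT1, proline oxidase, rose from 1545 and 1652 to 2663 and 2753 (0.76 ± 0.06 SE), while PUT3, its activator, fell from 2569 and 2599 to 1929.6 and 1799 (-0.47 ± 0.06 SE, adjusted p = 1.1e-05).

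Amino acid and peptide permeases rose in 19 of 30 cases and fell in 3 (73.3% called, against 39.7% of all features). The median was 0.36. PTR2, the di- and tripeptide transporter, had 876 and 896 normalised reads in the cassette and 2725 and 2821 in the Nab3 libraries (1.64 ± 0.06 SE). GAP1, the general amino acid permease, had 10406 and 11416 against 26350.0 and 27772 (1.31 ± 0.07 SE), the largest gain in normalised reads of any tested feature. DIP5, the acidic amino acid permease, had 3951 and 4012 against 8012 and 7608 (0.97 ± 0.05 SE). The groups of all 3 did not overlap, like those of 70.9% of all features, and none of the 3 calls was lost under any alternative. The falls were small, with AVT3, a vacuolar exporter, largest at -0.28, a call lost without the filter (adjusted p = 0.0553), and they numbered 1 without cassette library 1 or 2. The promoter stretches of MEP2, DAL80 and GAP1 are shown because GATA factors are known to act on these genes through GATAAG. Capitals mark GATAAG on either strand, which reads CTTATC on the other. The same stretches of DUR3 and GLT1 were searched too and hold none.
MEP2, from 250 to 101 bases before the start codon, R64 chrXIV:357203-357352, plus strand: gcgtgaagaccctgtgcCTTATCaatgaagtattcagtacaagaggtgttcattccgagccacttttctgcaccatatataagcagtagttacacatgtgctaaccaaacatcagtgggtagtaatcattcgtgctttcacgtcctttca
DAL80, from 250 to 101 bases before the start codon, R64 chrXI:506648-506797, plus strand: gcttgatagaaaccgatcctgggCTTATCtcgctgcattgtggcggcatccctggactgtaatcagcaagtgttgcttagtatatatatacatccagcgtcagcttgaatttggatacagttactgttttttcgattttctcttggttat
GAP1, from 250 to 101 bases before the start codon, R64 chrXI:514813-514962, plus strand: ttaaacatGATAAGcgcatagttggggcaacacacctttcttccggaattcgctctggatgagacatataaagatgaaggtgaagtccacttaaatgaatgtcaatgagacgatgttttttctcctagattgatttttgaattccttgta
In the 300-base start windows GATAAG on either strand occurred in 14.6% of all 5778 genes. It occurred in 45.2% of the 31 genes of the 4 nitrogen lists above (ammonium, allantoin, GATA control, GABA and proline). Of the 21 of these that rose, 47.6% held it. Other motifs of the same factors were not searched.

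The gene labels of the authors' deposited table belong to an analysis of these same samples, so they are not independent evidence of direction. Of the tested genes with the label NCR 70% were called, and of those with the label Nitrogen 39.4%, against 39.7% of all features. Of 80 tested genes labelled NCR, for nitrogen catabolite repression, 46 rose and 10 fell, with a median of 0.24, and the falls numbered 6 without cassette library 1 and 4 without the filter, without the trend or with DESeq2. Of 71 with the wider label Nitrogen 23 rose and 5 fell, with a median of 0.09, and the falls numbered 9 without Nab3 library 2 and 2 without Nab3 library 3, without cassette library 1, without the filter or without the trend.

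Genes of fatty acid and phospholipid synthesis rose more often than they fell. In this list 13 of 25 genes rose and 1 fell (56% called, against 39.7% of all features). The median was 0.19, and 7 rose without the filter on low values and 8 without the trend. OLE1, the desaturase, had 4359 and 5279 normalised reads in the cassette and 11557 and 11563 in the Nab3 libraries. ACC1, acetyl-CoA carboxylase, had 9022 and 10380.4 against 17424 and 17727, and FAS1, a fatty acid synthase subunit, had 12719 and 14882 against 21968 and 23895. In each of the 3 the cassette libraries differed from each other by more than the median feature, but both stayed below both Nab3 libraries. The log2 fold changes were 1.27 ± 0.07 SE, 0.86 ± 0.07 SE and 0.74 ± 0.08 SE. INO1, inositol phosphate synthase, was uneven within both groups, at 2294 and 4177 against 4322 and 6815, and its call (0.81 ± 0.21 SE, adjusted p = 0.00685) was lost without the filter (adjusted p = 0.231), without the trend (0.160) and with DESeq2 (0.285). The regulators INO2, INO4 and OPI1 were not called, at 0.18, 0.08 and 0.10.

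Zinc and copper genes rose more often than they fell, and iron genes split evenly. Of 17 genes of zinc and copper homeostasis 8 rose and 4 fell (70.6% called, against 39.7% of all features), with a median of 0.12. IZH4, a membrane protein linked to zinc, had 173 and 213 normalised reads in the cassette and 922 and 894 in the Nab3 libraries (2.23 ± 0.11 SE), and ZRT1, the high-affinity zinc transporter, had 6877 and 7806 against 13457 and 13529.8 (0.88 ± 0.06 SE). ZAP1, the activator of zinc uptake genes, rose from 1528 and 1668 to 2218 and 2272 (0.49 ± 0.06 SE). The copper metallothionein copies CUP1-1 and CUP1-2, whose reads cannot be assigned to 1 copy, fell at -0.47 and -0.49, and the falls of the list numbered 2 without cassette library 1 or without the filter. Among 30 iron genes 9 rose and 9 fell (60% called), with a median of -0.08. Without the filter or without the trend 4 fell. FRE4, a ferric reductase, rose from 292 and 291 to 1289 and 1289.9 (2.14 ± 0.08 SE) and FET4, the low-affinity iron transporter, from 2351 and 2235 to 3989.8 and 3769.8 (0.76 ± 0.05 SE). FET3, the multicopper oxidase of high-affinity uptake, fell from 5945 and 5662 to 3840.4 and 3663 (-0.63 ± 0.05 SE), and SIT1, a siderophore transporter, from 3677 and 3371 to 2279 and 2084 (-0.69 ± 0.06 SE). AFT1, the activator of iron uptake genes, was not called, at -0.08 (adjusted p = 0.295).

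Cell wall genes rose more often than they fell. Of 38 genes for glucan synthesis and wall integrity 18 rose and 3 fell (55.3% called, against 39.7% of all features). The median was 0.20, and 11 rose without the filter. The falls numbered 0 without cassette library 2 and 5 without Nab3 library 3. MKK2, a kinase of the wall integrity pathway, rose from 331 and 268 to 692 and 644 (1.16 ± 0.11 SE), while its paralog MKK1 rose by 0.32. CWP1, a wall mannoprotein, rose from 2387 and 2349 to 3905 and 4224 (0.78 ± 0.06 SE), and GSC2, a glucan synthase known for early termination, from 4544 and 4624 to 6616 and 7132 (0.58 ± 0.06 SE). YPK2, a kinase downstream of TOR complex 2, rose from 1286 and 1367 to 2277 and 2527 (0.86 ± 0.06 SE). It was the largest change among 28 genes of TOR signalling, of which 5 rose and 3 fell (28.6% called, against 39.7% of all features). Without the trend 2 rose, and fewer than 5 rose without cassette library 1 or 2.

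Most proteasome genes fell, each by a small amount, with 88.2% of the list called, against 39.7% of all features. Of 34 genes in this list 30 fell and 0 rose, with a median of -0.31, and the count of falls lay between 26 and 31 over all alternatives. PRE4, a catalytic-core subunit, had 1551 and 1578 normalised reads in the cassette and 1076 and 1099.9 in the Nab3 libraries. RPN10, a ubiquitin receptor of the cap, had 2650.2 and 2654 against 1873 and 1933, and RPN1, a scaffold of the cap, had 5224 and 5078 against 3915 and 3878. Every change in the list was under 1.5-fold, with PRE4 largest at -0.52 ± 0.06 SE (adjusted p = 7.47e-06). The groups of PRE4, RPN10 and RPN1 did not overlap, as was the case for 70.9% of all features. The genes not called were PRE5, PRE6 and PRE9 of the core, at -0.14, -0.10 and 0.04, and RPN4, the transcription factor that activates proteasome genes, at 2747 and 2817 against 2858 and 3028 (0.08, adjusted p = 0.25). The authors' label Proteasome covers 32 tested genes, of which 29 fell, and is not independent of this list.

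Redox enzyme genes held some of the deepest falls. In the list of old yellow enzymes and thiol redox genes 15 of 28 fell and 0 rose (53.6% called, against 39.7% of all features). The median was -0.23. OYE3, an NADPH dehydrogenase, had 2618 and 1991 normalised reads in the cassette and 398 and 382 in the Nab3 libraries. Its close paralog OYE2, with which reads can be shared, had 12004 and 11091 against 4588 and 4499. By group means OYE3 was 5.90-fold and OYE2 2.54-fold lower. ATR1, a multidrug exporter, fell from 4371 and 3621 to 1888 and 1822 (-1.10 ± 0.07 SE) and GTT2, a glutathione transferase, from 1095 and 910.3 to 507 and 445 (-1.07 ± 0.10 SE). TRX2, a thioredoxin, and AHP1, a thiol peroxidase, fell by less, at -0.66 ± 0.06 SE and -0.53 ± 0.05 SE. YAP1, the transcription factor of the oxidative stress response, fell from 1896 and 1803 to 1481 and 1527 (-0.30 ± 0.06 SE, adjusted p = 0.000873). Both superoxide dismutase genes and the main peroxiredoxin gene TSA1 were not called, SOD1 at -0.12, SOD2 at 0.20 and TSA1 at -0.03.

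Of the 6 tested genes for putative aryl-alcohol dehydrogenases 4 fell (66.7% called, against 39.7% of all features). All 4 fell at least 2-fold, and the list median was -1.18. AAD16 had 1562 and 1455 normalised reads in the cassette and 234 and 253 in the Nab3 libraries (-2.62 ± 0.08 SE). AAD4 had 861 and 754 against 366 and 326 (-1.22 ± 0.09 SE), and AAD3 had 896 and 904 against 392 and 403 (-1.18 ± 0.08 SE). AAD10 and AAD14, of the same family, were level at -0.08 and -0.10. The family members resemble each other, so shared reads leave single values uncertain. Other reductases fell as well, GRE2, which reduces methylglyoxal, from 3092 and 2755 to 1117 and 1117 (-1.38 ± 0.06 SE) and ADH7, an NADPH-dependent alcohol dehydrogenase, from 269.7 and 199 to 98.8 and 80.4 (-1.37 ± 0.17 SE).

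Many heat shock genes fell. Of 9 small heat shock and disaggregase genes 8 fell, of 18 Hsp70 and exchange factor genes 9 fell, and of 21 Hsp90, J-protein and co-chaperone genes 14 fell. None of these 48 genes rose. The shares called were 88.9%, 50% and 66.7%, against 39.7% of all features. Without the filter on low values the counts were 4, 6 and 6, and without cassette library 1 the last was 8. HSP82, the inducible Hsp90, whose reads can be shared with its near-copy HSC82, had 11434 and 11202 normalised reads in the cassette and 6408 and 8273 in the Nab3 libraries (-0.64 ± 0.09 SE). HSP42, a small heat shock protein, had 745 and 769 against 322 and 469 (-0.96 ± 0.13 SE), and BTN2, a sorting factor for misfolded proteins, had 2223 and 2071 against 704 and 1012 (-1.35 ± 0.12 SE). In these 3 genes Nab3 library 2 was lower than Nab3 library 3, and both lay below the cassette. SSA4, a stress-induced Hsp70 and the deepest fall of the 3 lists, was close in both Nab3 libraries, at 2400.0 and 2205 against 824 and 795 (-1.51 ± 0.06 SE). Of the 31 members that fell, 25 were lower in Nab3 library 2 than in library 3, and HSP31 and HSP30 were among those that were not. HSP82 (adjusted p = 0.0565) and HSP42 (0.0550) lost their calls without the filter. KAR2, the Hsp70 of the endoplasmic reticulum, fell from 8162 and 8754 to 4755 and 5864 (-0.68 ± 0.08 SE). The ribosome-bound Hsp70 genes SSB1 and SSB2 were not called, at -0.04 and -0.01. HSP42 is shown as the gene among these whose stretch below holds a heat shock element, searched as GAA, any 2 bases, then TTC, which capitals mark. The same stretches of SSA4 and BTN2 hold none.
HSP42, from 250 to 101 bases before the start codon, R64 chrIV:806371-806520, plus strand: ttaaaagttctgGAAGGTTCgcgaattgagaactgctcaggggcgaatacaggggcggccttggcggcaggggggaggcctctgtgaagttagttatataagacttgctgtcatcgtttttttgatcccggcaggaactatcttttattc
The element occurred in the start windows of 10 of the 48 chaperone genes (20.8%) and in 12.0% of all 5778 windows.

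Phosphate genes moved in both directions. Of 16 genes for uptake and phosphatases 8 fell and 4 rose (75% called, against 39.7% of all features), with a median of -0.15. PHO84, the high-affinity transporter, lies under an annotated antisense RNA and fell most, 6.53-fold. PHO89, the sodium-coupled transporter, had 204 and 186 normalised reads in the cassette and 97.1 and 70.6 in the Nab3 libraries (-1.23 ± 0.17 SE), and PHM6, a gene of unknown function, had 144 and 129 against 53.1 and 59.7 (-1.26 ± 0.17 SE). PHO5, the secreted acid phosphatase, fell from 585 and 669.7 to 377 and 387 (-0.71 ± 0.09 SE), but its homologs PHO11, PHO12 and PHO3 were not called, between -0.06 and 0.00. PHO87 and PHO90, low-affinity transporters, moved in opposite directions, at -0.48 ± 0.05 SE and 0.28 ± 0.05 SE. Among 17 genes of polyphosphate and phosphate control 6 rose and 6 fell (70.6% called). VTC3 and VTC4, of polyphosphate synthesis, fell at -0.42 and -0.34, and PHO81, the inhibitor that signals low phosphate, at -0.37. PHO4, the activator, rose by 0.26. SPL2, which lowers low-affinity uptake, is shown because its promoter stretch holds CACGTG, the known Pho4 motif, marked in capitals. The same stretch of PHO84 holds none.
SPL2, from 250 to 101 bases before the start codon, R64 chrVIII:375201-375350, minus strand: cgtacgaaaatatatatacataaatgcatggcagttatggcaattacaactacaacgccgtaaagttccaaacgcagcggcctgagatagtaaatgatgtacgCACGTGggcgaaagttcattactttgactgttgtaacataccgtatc
CACGTG occurred in 4 of the 16 start windows of this list and in 2.96% of all 5778.

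Genes for hexose transport and glucose sensing were called about as often as all features. Of 26 genes for hexose transport and glucose sensing 9 fell and 1 rose (38.5% called, against 39.7% of all features). The median was -0.12, and 5 fell without the filter. HXT5 had 646 and 585 normalised reads in the cassette and 289 and 276 in the Nab3 libraries (-1.12 ± 0.09 SE), HXT4 had 2122 and 1935 against 1088 and 1212 (-0.82 ± 0.07 SE), and HXT2 had 3221 and 2856 against 1893 and 1565 (-0.82 ± 0.08 SE). The 1 rise was RGT1, described above behind SNR69, and a link between it and the falls was not tested. HXT1 and HXT3 fell by less, at -0.20 and -0.30, and HXT6 and HXT7, near-identical copies, at -0.44 and -0.47. The call of HXT1 was lost without cassette library 1 (adjusted p = 0.100), and those of HXT6 and HXT7 without the filter (0.0818 and 0.0711). The glucose sensors SNF3 and RGT2 were not called, at -0.11 and 0.07.

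**Figure D4:**
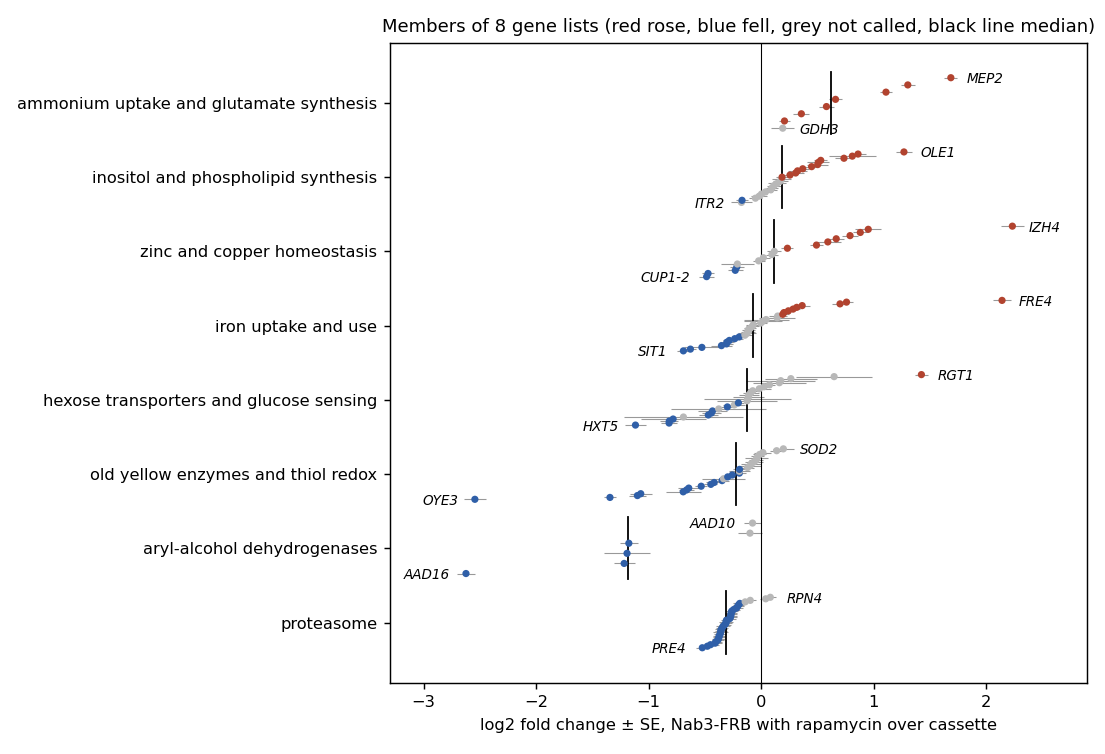
Log2 fold change with its SE (x axis) of every tested member of 8 gene lists; the black line is the list median and the outermost members are named. All 34 proteasome genes lie in a narrow band with 30 below 0 and called, whereas the redox and aryl-alcohol dehydrogenase lists spread down to OYE3 and AAD16.

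The protease list and the autophagy genes gave 1 pair in opposite directions. The list holds 11 genes, mostly of vacuolar and cell-surface proteases, with the protease inhibitor gene PBI2 among them. In it 7 rose and 1 fell (72.7% called, against 39.7% of all features), with a median of 0.22. Without the filter 2 rose, and without the trend 4. The fall was APE1, the aminopeptidase carried to the vacuole by selective autophagy, from 1840.2 and 1798 to 589 and 626 (-1.58 ± 0.07 SE). ATG19, the receptor that carries it there, rose from 501 and 578 to 1090.5 and 1078 (1.01 ± 0.08 SE) and was the largest rise among 32 autophagy genes. Of these 5 rose and 3 fell (25% called, against 39.7% of all features), with a median of -0.05. Without the filter 2 rose, and fewer than 5 rose without cassette library 1. ATG8, the core autophagosome protein, was not called, at -0.10. Ribosomal protein genes fell in 34 of 137 cases and rose in 3 (27.0% called, against 39.7% of all features), a median of -0.08. The falls ranged from 8 without the trend to 53 with upper-quartile scaling. They numbered fewer than 34 without cassette library 1, without cassette library 2 or without Nab3 library 3. Respiratory genes gave 6 rises and 10 falls in 44 (36.4% called, against 39.7% of all features). The falls numbered 6 without the filter or with DESeq2. COX5B, the subunit used when oxygen is low, rose from 522 and 566 to 831 and 988 (0.74 ± 0.09 SE), while its counterpart COX5A fell from 3469 and 3379 to 2916 and 2999 (-0.21 ± 0.05 SE), which missed the threshold when cassette library 1 was left out (adjusted p = 0.0709).

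**Figure D5:**
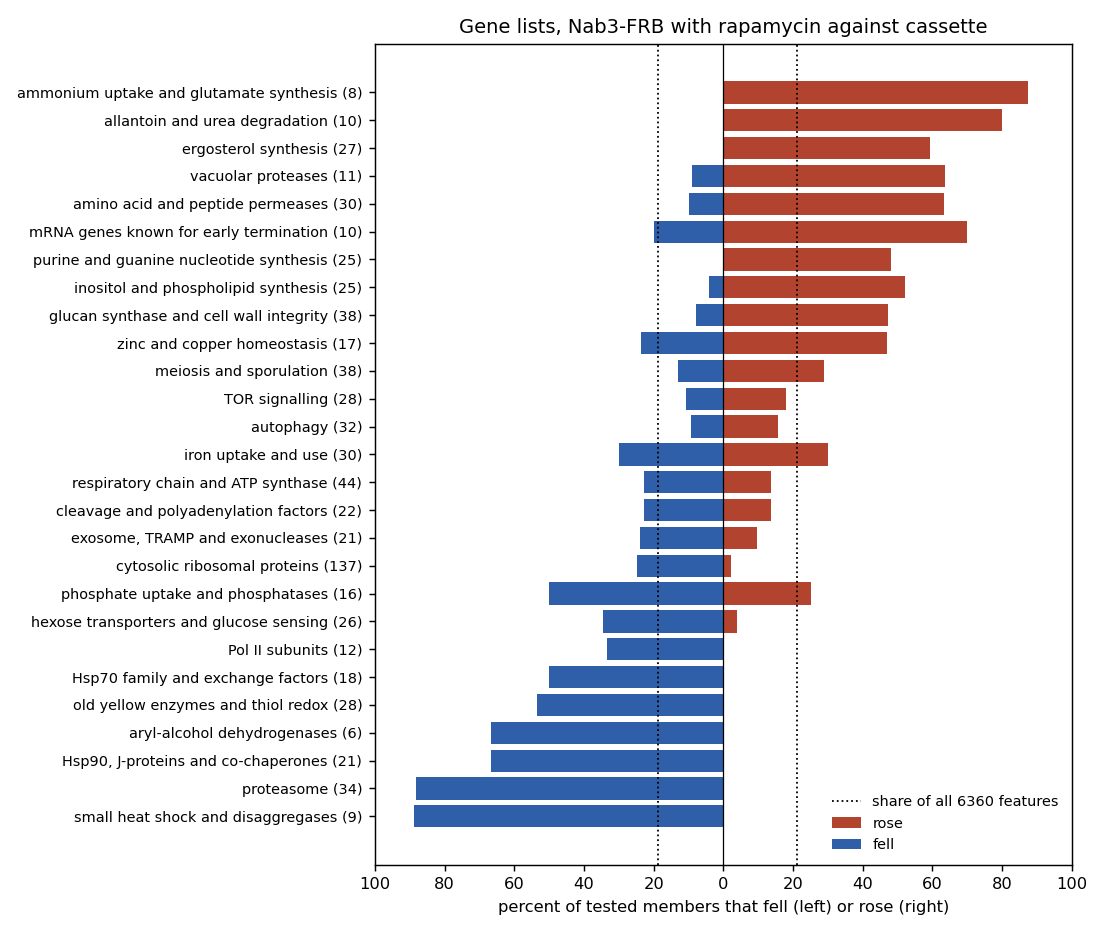
Percent of tested members (number in brackets) of 27 gene lists that rose (right, red) or fell (left, blue); dotted lines give the shares over all 6360 features, 21.1% and 18.7%. Lists run from ammonium uptake and glutamate synthesis, with 7 of 8 members risen, to those whose members mostly fell, with the proteasome at 30 of 34.

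Genes next to strongly changed ones were called about as often as other features, counting calls of any size. Behind genes that rose at least 2-fold, 48 tested genes start within 1000 bases on the same strand, of which 11 rose (22.9%) and 7 fell (14.6%), near the 21.1% and 18.7% of all features. Single cases are given as values. MRPL17, a mitochondrial ribosomal protein gene that starts 302 bases behind NRD1, fell from 1409 and 1396 to 1017 and 876 (-0.57 ± 0.07 SE). On chromosome XIV DSE4, YNR066C and YNR065C lie in a row and rose, at 1.06, 1.73 and 1.25, and YNR064C, the next gene, was not called, at 0.19. Behind genes that fell at least 2-fold, 29 genes start within 1000 bases, of which 4 rose (13.8%) and 7 fell (24.1%). For changes of at least 2-fold the shares were higher than among all features with a position. Of the 48 genes 2 rose at least 2-fold (4.17%, against 1.89%), and of the 29 genes 3 fell at least 2-fold (10.3%, against 0.848%). These differences were not tested. On chromosome III the adjacent ADH7, RDS1 and AAD3 each fell, RDS1, which encodes a zinc cluster protein, from 3622 and 3804 to 1329 and 1244 (-1.53 ± 0.06 SE). FPR1, which encodes the rapamycin-binding protein, starts 225 bases behind YNL134C and fell from 163 and 154 to 93.9 and 108 (-0.64 ± 0.15 SE). YNL134C itself fell from 12030.0 and 11863 to 4758 and 4971 (-1.30 ± 0.05 SE). YBR298C-A, between the maltose genes MAL32 and MAL31 on chromosome II, had 1 read in the cassette libraries together and 127 in the Nab3 libraries. The ratio per depth was 122 (exact 95% interval 21.6 to 4874, counting error only, without the spread between libraries). With a cassette mean under 10, this feature passed the filter only through the Nab3 libraries. MAL32 rose from 111 and 122 to 344 and 381 (1.63 ± 0.12 SE) and MAL31 from 492 and 462 to 659.5 and 691 (0.50 ± 0.08 SE). LIN1, a U5 snRNP component whose gene lies 67 bases from the snoRNA gene SNR71 on the other strand, fell from 988 and 889 to 253 and 228 (-1.96 ± 0.09 SE). Whether reads that run on from a neighbour contribute to such pairs was not tested. Within 20000 bases of a chromosome end 11 of 179 genes rose and 10 fell at least 2-fold, against 98 and 39 of 5599 farther in.

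The authors' deposited table of the same comparison calls 1794 features at an adjusted p under 0.05, 1025 risen and 769 fallen. Of these, 1790 were also called here, all in the same direction, which is 99.8% of the authors' calls and 70.8% of those made here.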

How the data were processed

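PAR-CLIP libraries of the cassette and the Nab3 depletion groups were compared, 2 against 2, grouped by their labels. The authors deposited a normalised signal per feature. Bowtie 1.1.1, DESeq, R64 and sacCer3 are named without roles in the submitters' processing notes, and the strand setting is not given in the sources used here. In the deposited values 100% of the entries were whole reads divided by 1 factor per library (tolerance 0.01 reads), and the depths given are sums of those reads. Values were converted to log2(value + 1), the deposited log2 fold changes were not used, and the deposited p-values served only to count the authors' calls. Deposited lengths and list labels, of no numeric unit, were taken as other values. limma 3.58.1 in R 4.3.3, with a trend, tested 6360 features with a mean of at least 10, and p-values were Benjamini-Hochberg adjusted over all of them. SE is that of the log2 fold change, with n = 2 per group.

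Members and gene lists were chosen with earlier results of these data known. Named genes were the 15 largest rises and 15 largest falls with a standard name, a call and a mean of at least 50 in the higher group, the largest rises with a systematic name, and list members. Alternatives were other pseudocounts, filters and scalings, no trend, edgeR 4.0.16 and DESeq2 1.42.0 on the recovered reads, and each library left out. Tested on simulated data with 6344 features, the fit called 92 of 100 features changed 1.5-fold, 96 of 100 changed 2-fold and 8 of 6144 unchanged ones. The reads behind a value limit its precision. Between repeats the chi-square per degree of freedom was 3.00 in the cassette and 4.97 in the Nab3 libraries. These figures pool 6429 and 6479 features, and over them counting error is the smaller part. They are not split by level, so the part of counting error in weakly read features was not tested. RefSeq entries on R64 were matched for 5914 of 6677 features.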

Additional observations from a re-analysis of the deposited data

How the results depend on the processing

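No feature called under both the stated and an alternative setting changed direction. Of 370 named genes over 14 alternatives, 282 kept their side of the threshold throughout, 75 lost a call and 13 gained one under at least 1 alternative, and 0 reversed. Of 2528 changed features (1341 risen, 1187 fallen), 1511 were also called without the filter on low values, which called 1566 in all (619 fallen). Fallen features numbered 721 without the trend and 766 with DESeq2, and a minimum mean of 50 left 133 rises of at least 2-fold. edgeR called 2522, of which 2493 were shared. Upper-quartile scaling moved the share of rises among calls from 53.0% to 43.7% and the median of all features to -0.04. Leaving out 1 library, which takes the lone library to vary like the others, gave 1672 to 2808 changed features, 1022 to 1407 risen, 650 to 1401 fallen, 210 to 227 risen and 50 to 63 fallen at least 2-fold. The lowest values for changed and fallen features came without cassette library 1; the cause was not tested. No paired analysis was possible because the Nab3 columns carry the numbers 2 and 3 and the cassette columns 1 and 2, so the groups share fewer than 2 numbers.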
